A study of Mus musculus with 2 samples.

Results

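The miR-106b~25 cluster is a set of 3 microRNA (miRNA) genes, Mir106b, Mir93 and Mir25, whose hairpins lie inside Mcm7, a gene for a subunit of the helicase that licenses DNA for replication. The members were taken by their Ensembl identifiers, and all 3 had a row among the 1973 genes of the deposited count tables. The tables come from microRNA sequencing of forebrain from healthy mouse embryos of strain B6NCrl at embryonic day 12.5, with no treatment and no second tissue or age. The single group had 2 biological replicates made from pooled male and female embryos, 120 embryos for replicate 1 and 68 for replicate 2, each sequenced as 1 library from RNA below 30 nt. Because each pool mixes many embryos and all forebrain cell types, fewer cells of a type and less RNA per cell cannot be told apart. The design has no contrast between conditions, so the question addressed here is at what level each hairpin of the cluster was read, in comparison with the other hairpins of its locus, its relatives and the other pool.

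MiRNAs are cut from hairpin precursors by DROSHA and DICER and guide Argonaute proteins to messenger RNAs, mainly through the seed, bases 2 to 8 of the mature strand. Mammals carry 3 related clusters of this kind: that of miR-17 in the non-coding host Mir17hg, that of miR-106a on the X chromosome, and miR-106b~25 in Mcm7. Their miRNAs are known for promoting proliferation by lowering cell-cycle inhibitors and pro-apoptotic factors, and miR-25 of the Mcm7 cluster has been linked to proliferation of neural progenitors. Mcm7 is transcribed in dividing cells, and its intronic miRNAs lie in the same primary transcript as this replication gene.

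The cluster carries 2 kinds of seed. The mature strands with a miR-17 or miR-92 seed are shown for the members and their nearest relatives, because the seed divides the cluster and decides which genes it is compared with. Sequences are from RefSeq (GRCm38.p6), written 5′ to 3′ with the seed in capitals. miR-106b and miR-93 share their seed with miR-17 and miR-20a of Mir17hg and with miR-106a and miR-20b of the X chromosome.
miR-106b-5p: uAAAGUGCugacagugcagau
miR-93-5p: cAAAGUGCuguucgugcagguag
miR-17-5p: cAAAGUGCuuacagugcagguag
miR-20a-5p: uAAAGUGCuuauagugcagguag
miR-106a-5p: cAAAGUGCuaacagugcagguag
miR-20b-5p: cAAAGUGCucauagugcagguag

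The seed of miR-25 is that of miR-92a, which is cut from both Mir92-1 and Mir92-2, of miR-92b, and of miR-363, miR-32 and miR-367.
miR-25-3p: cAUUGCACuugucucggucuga
miR-92a-3p: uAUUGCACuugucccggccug
miR-92b-3p: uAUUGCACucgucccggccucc
miR-363-3p: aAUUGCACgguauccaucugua
miR-32-5p: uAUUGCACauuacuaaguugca

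Compared without gaps from base 1, miR-106b-5p and miR-93-5p were identical at 16 of 21 bases, fewer than miR-106b-5p shared with miR-17-5p, miR-20a-5p or miR-106a-5p, 18 of 21 in each. The nearest relative of miR-93-5p was miR-20b-5p, with 20 of 23 bases identical. miR-25-3p was identical to miR-92a-3p at 18 of 21 bases and to miR-92b-3p at 16 of 22. By sequence the members are therefore closer to miRNAs of the paralogous clusters than to each other.

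The hairpins lie on the minus strand of chromosome 5 in mm10, in the order Mir106b, Mir93, Mir25 in the direction of transcription. Mir106b (ENSMUSG00000065514.1) runs from 138165737 to 138165818, Mir93 (ENSMUSG00000065527.1) from 138165523 to 138165610 and Mir25 (ENSMUSG00000065394.1) from 138165321 to 138165404. All 3 lie in intron 13 of the 15-exon transcript that spans the whole of Mcm7, an intron of 748 bases, and the cluster spans 498 bases of it. Gaps of 126 and 118 bases separate the hairpins. Mcm7 (ENSMUSG00000029730.16) itself runs from 138164583 to 138172422. Mir93 and Mir25, but not Mir106b, are also exonic in a shorter Mcm7 transcript annotated as a retained intron.

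The hairpins are printed with both mature arms in capitals, because the deposited counts are given per hairpin and add the reads of both arms.
Mir106b: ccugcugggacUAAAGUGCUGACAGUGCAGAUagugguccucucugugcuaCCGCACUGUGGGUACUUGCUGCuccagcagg
Mir93: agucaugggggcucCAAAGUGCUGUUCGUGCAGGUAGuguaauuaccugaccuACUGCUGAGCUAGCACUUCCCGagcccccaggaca
Mir25: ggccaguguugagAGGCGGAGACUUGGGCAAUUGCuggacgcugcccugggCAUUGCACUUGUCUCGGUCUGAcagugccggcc

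The hairpins were 82, 88 and 84 bases long. The strand that carries the miR-17 seed is the 5′ arm in Mir106b and Mir93, whereas the strand with the miR-92 seed is the 3′ arm in Mir25. The predicted minimum free energy was -41.0 kcal/mol for Mir106b, -46.3 kcal/mol for Mir93 and -35.9 kcal/mol for Mir25, so Mir25 had the weakest predicted fold and, with 63.1% against 57.3% and 55.7%, the highest content of G and C. The longest run of bases shared with any other annotated miRNA hairpin on either strand was 14 for Mir106b, 13 for Mir93 and 14 for Mir25. None of the 3 seed-bearing mature strands occurred, in sense, in an annotated transcript of another gene. The genome sequence was not used here, so matches outside annotated transcripts were not examined.

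The files assign 4333194 and 4397107 reads to the gene strand of miRNA genes. Levels below are reads per 1000000 such reads (CPM), not divided by length, since each read comes from a short RNA and not from a tiled transcript. Reads that matched several places were 37.9% of all reads in each library and stand outside the gene counts. Of the neural progenitor and neuron markers, 8 of the 10 with a row reached 10 reads in each library, and the list held 2.90% and 2.85% of assigned reads, most of it Mir92b. This list holds several genes each of miR-9, miR-124 and miR-128. Their reads can match several places and then stand outside the counts, so the list's share may be too low, by an amount not measured. It is not to be compared with the shares of the other lists, some of which also hold several genes of 1 miRNA. Endothelial Mir126a held 1.66% and 2.12%, mesenchymal and mural markers 1.30% and 1.57%, epithelial markers 1.36% and 1.00%, and erythroid, leukocyte and Hox cluster markers between 0.0176% and 0.0452% each.

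Mir93 was the most abundant member and Mir25 the least, with Mir106b close below Mir93. Mir93 had 101173 reads in replicate 1 and 96495 in replicate 2, or 23348 and 21945 CPM, a mean of 22647 ± 992.3 CPM (SD, n = 2). It held place 9 among all genes, 8 in replicate 1 and 11 in replicate 2. Mir106b had 65761 and 71512 reads, or 15176 and 16263 CPM, a mean of 15720 ± 768.8 CPM (SD, n = 2), and held place 15 in both libraries. Mir25 had 5017 and 4438 reads, or 1158 and 1009 CPM, a mean of 1084 ± 105.0 CPM (SD, n = 2), at place 99, 98 in replicate 1 and 101 in replicate 2. The values of the 3 genes did not overlap between members, and their order was the same in both libraries. Together they held 3.97% and 3.92% of assigned reads, a mean of 3.95% ± 0.0328 (SD, n = 2), of which Mir93 made up 57.4% ± 2.04, Mir106b 39.9% ± 2.28 and Mir25 2.75% ± 0.243. None of the members had a read on the opposite strand in either library.

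**Figure D1:**
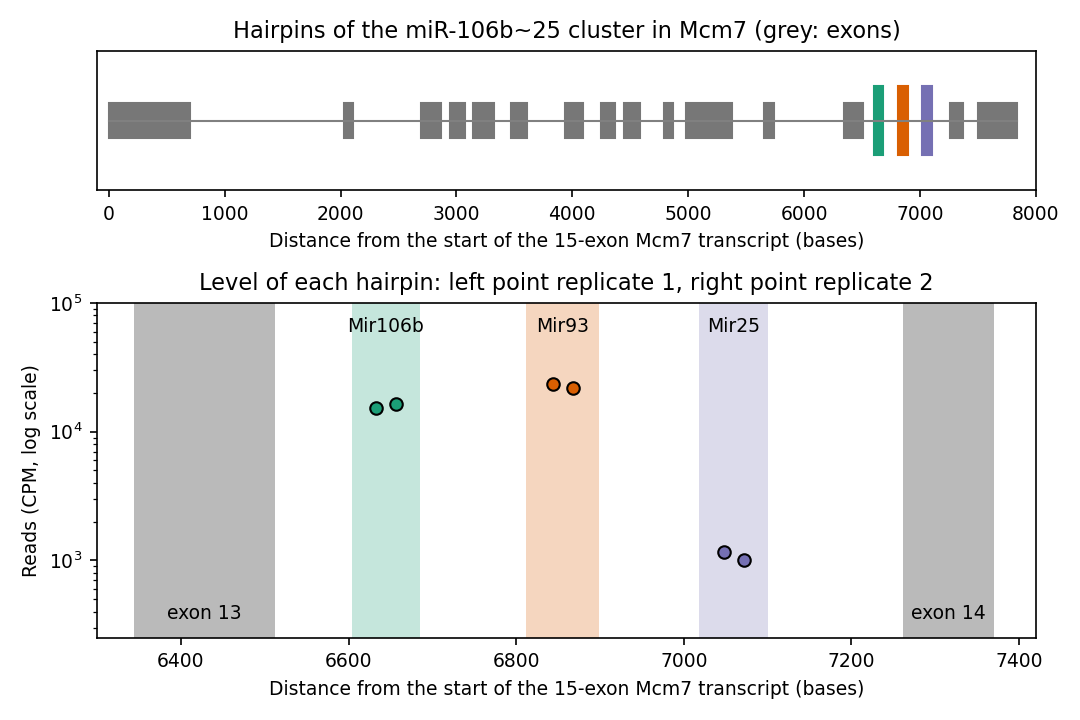
Upper panel, exons of the 15-exon Mcm7 transcript in grey and the 3 hairpins in colour, by distance in bases from the transcript start. Lower panel, intron 13 enlarged, with the level of each hairpin in CPM on a log scale, replicate 1 as the left point and replicate 2 as the right point; Mir25, the hairpin nearest to exon 14, stands at 1158 and 1009 CPM, below Mir106b and Mir93 in both libraries.

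Ratios within a library do not depend on its size. Mir93 was read 1.54 times as often as Mir106b in replicate 1 (95% exact binomial interval 1.52 to 1.55) and 1.35 times as often in replicate 2 (1.34 to 1.36). The intervals, which cover counting error only, do not overlap, so the balance of these neighbours moved between the pools by more than counting error, while Mir93 stayed the higher. Mir93 was read 20.2 times as often as Mir25 in replicate 1 (19.6 to 20.7) and 21.7 times in replicate 2 (21.1 to 22.4). For Mir106b against Mir25 the ratio was 13.1 (12.7 to 13.5) and 16.1 (15.6 to 16.6). On the log2 scale the ratios were 0.53 ± 0.13 for Mir93 to Mir106b, 4.39 ± 0.08 for Mir93 to Mir25 and 3.86 ± 0.21 for Mir106b to Mir25 (SD, n = 2). Divided by hairpin length they were 0.43, 4.32 and 3.90. Each mean ratio exceeded its SD. An exact permutation test of 2 values against 2, which ignores that both genes are read in the same library, cannot give a two-sided p below 0.333. Pairing by library leaves only 2 pairs, so no p is given.

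The wide step within the cluster was set beside other loci. Among miRNA genes that follow each other on 1 strand at most 10 kb apart, 9 groups of at least 3 genes had at least 10 reads for every gene over both libraries. The ratio of the highest to the lowest gene, averaged over the libraries, was 20.95 ± 1.12 (SD, n = 2) in the Mcm7 cluster and had a median of 58.5 over the 9 groups, with a range of 4.63 to 2639. Ordered from the most even, the Mcm7 cluster took place 4 of 9, and place 2 of 8 when neighbours had to lie at most 3 kb apart. The ratio was 235.4 for the miR-106a cluster and 1765 for the Mir17hg cluster, each of 6 genes against 3 in Mcm7. In these 2 clusters the lowest genes were Mir19b-2 and Mir19b-1, whose hairpins share 25 bases with each other, so their levels are uncertain. The Mcm7 cluster has no gene of that kind, and a group of more genes tends to a wider ratio. The places are therefore not a like comparison. From the highest miR-17 seed gene to the miR-92a gene, or Mir25 in Mcm7, the order was the other way. That ratio was 20.2 and 21.7 in Mcm7, 9.28 and 8.06 in Mir17hg, and 5.57 and 5.15 in the miR-106a cluster.

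The paralogous clusters are the nearest relatives of the Mcm7 cluster, and their counted totals bracket it. The 6 genes of the Mir17hg cluster held 10.1% and 10.3% of assigned reads, 2.54 and 2.62 times the share of the 3 hairpins in Mcm7. The 6 genes of the miR-106a cluster held 0.656% and 0.711%, and the Mcm7 cluster stood 6.05 and 5.51 times above them. The counted totals did not overlap between clusters. Those of the 2 paralogous clusters may be too low, by an amount not measured. Mir92-1 shares a run of 22 bases with Mir92-2, and Mir19b-1 one of 25 bases with Mir19b-2. Reads that match both places stand outside the counts. The Mcm7 cluster may therefore stand further below the Mir17hg cluster, and less far above the miR-106a cluster, than counted. Mir106b and Mir106a kept almost the same ratio in both libraries, 5.70 and 5.76, whereas Mir93 was 15.4 times above Mir20b in replicate 1 and 12.6 times in replicate 2. Mir17, whose mature strand is as alike to that of Mir106b as Mir106a's is, stood 4.02 times above Mir106b in replicate 1 and 3.70 times in replicate 2.

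**Figure D2:**
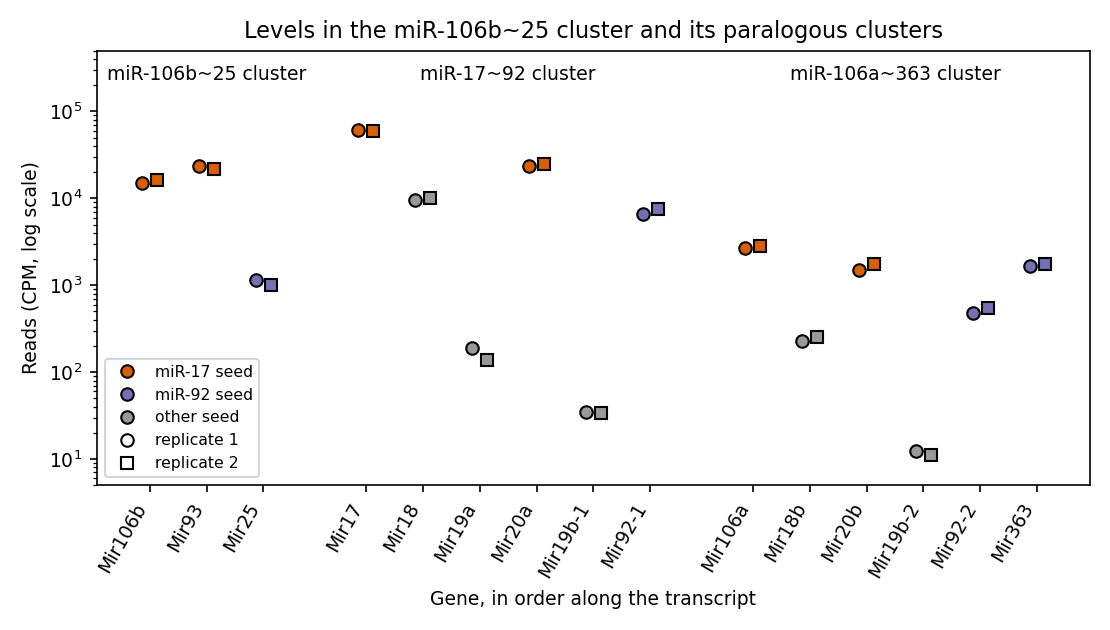
Levels in CPM on a log scale for the genes of the miR-106b~25, Mir17hg and X-linked miR-106a clusters, in order along each transcript; circles are replicate 1, squares replicate 2, and colours mark the seed. In each cluster the miR-92 gene (Mir25, Mir92-1 or Mir92-2) stands below the miR-17 seed genes; the miR-106a cluster also holds Mir363, which lies near Mir20b.

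Among the 7 genes whose mature strand carries the seed of miR-106b and miR-93, the family held 12.7% and 12.8% of assigned reads. Here and for the family of Mir25, counts add both arms of a hairpin. The shares are those of the genes, and also hold reads of arms without the seed. Mir17 led at 60649 ± 594.7 CPM (SD, n = 2), followed by Mir20a at 24125 ± 1104 CPM, Mir93, Mir106b, Mir106a at 2742 ± 111.7 CPM and Mir20b at 1628 ± 160.0 CPM. Mir6383 had 0 reads, for which the 95% exact Poisson interval reaches 0.851 and 0.839 CPM in replicates 1 and 2. The floor of 3 reads stands at 0.692 and 0.682 CPM. Neighbours in this order did not overlap between libraries, except Mir20a and Mir93, whose values do overlap. In replicate 1 they had 101154 and 101173 reads, a ratio of 1.00 (0.991 to 1.01), and in replicate 2 Mir20a had 109511 against 96495 reads, a ratio of 1.13 (1.13 to 1.14). The Mcm7 members held 30.3% and 29.9% of the family's reads, a mean of 30.1% ± 0.307 (SD, n = 2). The Mir17hg cluster held 66.5% ± 0.109 and the miR-106a cluster 3.43% ± 0.198. Although Mir93 and Mir106b moved in opposite directions between the pools, at 18.4% and 17.2% of the family for Mir93 and 11.9% and 12.7% for Mir106b, their joint share was close in both.

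The family of Mir25 looked different. Its 7 genes held 2.97% and 3.10% of assigned reads, and Mir25 made up 3.90% and 3.26% of that, a mean of 3.58% ± 0.453 (SD, n = 2). Mir92b, which lies outside the 3 clusters and is known from progenitors of the developing cortex, stood at 19620 ± 283.3 CPM (SD, n = 2) and held 64.7% ± 0.998 of the family's reads. It was read 16.8 times as often as Mir25 in replicate 1 (16.3 to 17.3) and 19.6 times in replicate 2 (19.1 to 20.2). Mir92-1 followed at 7027 ± 628.0 CPM and Mir363 at 1699 ± 55.30 CPM, then Mir25, Mir92-2 at 512.9 ± 49.12 CPM and Mir32 at 392.9 ± 4.068 CPM. Neighbours in this order did not overlap between libraries. Mir367 had 6 and 2 reads.

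Mir92-1 and Mir92-2 give the same mature strand and their hairpins share a run of 22 bases, so reads of miR-92a can match both places and then stand outside the counts. Their levels are therefore uncertain. Without them Mir25 held 4.76% of the remaining family reads. Leaving genes out can only raise this share, whereas counting more reads of miR-92a would lower the share of Mir25. The 4.76% therefore does not measure the effect of the reads left out. The part of miR-92a in the reads that matched several places was not measured.

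**Figure D3:**
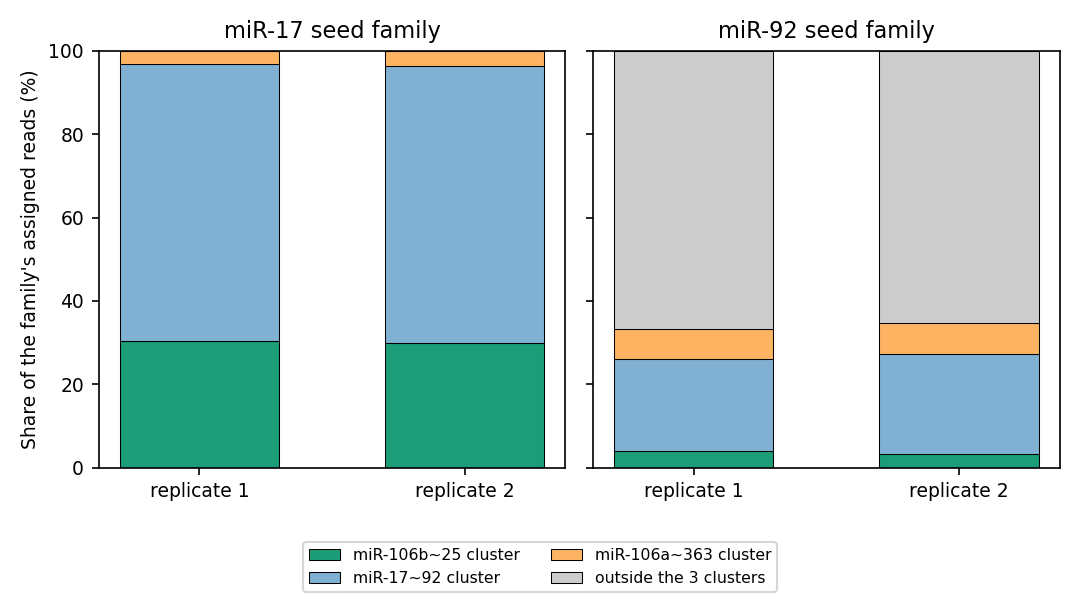
Share of each seed family's assigned reads, in percent, by cluster, for replicate 1 and replicate 2. Counts add both arms of each hairpin, with and without the seed. The Mcm7 cluster (green, lowest segment) holds 30.3% and 29.9% of the miR-17 seed family and 3.90% and 3.26% of the miR-92 seed family.

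In all 3 clusters the gene of the miR-92 kind, Mir25, Mir92-1 or Mir92-2, was read less than the genes with the miR-17 seed, while Mir363, which also has the miR-92 seed, stood at 1660 and 1738 CPM beside Mir20b at 1515 and 1742 CPM. Mir17 stood 9.28 and 8.06 times above Mir92-1, and Mir20a 3.55 and 3.33 times. Mir106a stood 5.57 and 5.15 times above Mir92-2, and Mir20b 3.17 and 3.18 times. The ratios of Mir93 and Mir106b to Mir25, from 13.1 to 21.7, lay above all of these. The uncertain levels of Mir92-1 and Mir92-2 apply to the ratios of the other clusters, not to those of Mir25.

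The genes nearest to each member in level, by distance on log2(CPM + 1) over the 2 libraries, were taken as neighbours in abundance. For Mir93 these were Mir100 at 22632 ± 845.3 CPM (SD, n = 2), Mir20a, and Mir149 at 20565 ± 935.2 CPM, at distances of 0.12, 0.18 and 0.20. For Mir106b they were Mirlet7i at 14922 ± 1891 CPM, Mir322 at 14242 ± 270.0 CPM and Mir487b at 13996 ± 1033 CPM, at distances of 0.16, 0.20 and 0.30. For Mir25 they were Mir340 at 1151 ± 162.6 CPM, Mir543 at 1023 ± 21.61 CPM and Mir125b-2 at 1038 ± 12.58 CPM, at distances of 0.13, 0.16 and 0.18. With 2 libraries of 1 group the measure reflects level only. Of these 9 places, 1 went to a gene of a paralogous cluster.

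Between the pools, Mir106b was higher in replicate 2 and Mir93 and Mir25 were lower, all by small amounts. The log2 ratio of replicate 2 to replicate 1 was 0.10 for Mir106b, -0.09 for Mir93 and -0.20 for Mir25, so that Mir25 fell by 12.8% in CPM. With edgeR's TMM scaling, which centres the ratios of most genes near 0, the values were 0.06, -0.13 and -0.24, in the same directions. The exact Poisson intervals did not overlap for any member, at 15060 to 15293 against 16144 to 16383 CPM for Mir106b, 23205 to 23493 against 21807 to 22084 CPM for Mir93, and 1126 to 1190 against 979.8 to 1039 CPM for Mir25.

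Fisher's exact test compared the reads of the libraries, not conditions, with Benjamini-Hochberg adjustment over 511 genes. The two-sided adjusted p was 4.73e-37 for Mir106b, 5.72e-43 for Mir93 and 1.70e-10 for Mir25. At an adjusted p under 0.05 alone, 1 of 3 members was higher in replicate 2, where 20.2% of all tested genes were, and 2 of 3 were lower, where 12.5% were. Of the 167 genes at that threshold 103 were higher and 64 lower, and with TMM scaling 80 of 170 were higher and 90 lower. With a 2-fold minimum added, 0 of 3 members were called, against 2.74% of all tested genes. The test takes counting error as the only error, and at this depth Mir17, with a log2 ratio of -0.02, also had an adjusted p of 1.04e-06.

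The members' differences were set beside the spread of all genes for that reason. Over the 403 genes that had 10 or more reads in each library the median absolute log2 ratio was 0.17, and edgeR's common biological coefficient of variation was 16.6%. A larger absolute ratio than that of Mir106b was found in 265 of the 403 genes, than that of Mir93 in 280, and than that of Mir25 in 178. Among the 101 genes of at least 1000 CPM the median was 0.10, and 50, 55 and 24 genes exceeded Mir106b, Mir93 and Mir25. The difference between the pools in Mir106b and Mir93 was thus at or below the median of these abundant genes, and that in Mir25 was above it. Of the epithelial markers, 7 of 7 were detected, with summed levels of 13628 and 10008 CPM in replicates 1 and 2. The 5 miR-200 genes stood lower in replicate 2, among them Mir429 at 6141 and 3908 CPM, while Mir203 stood higher, at 1916 and 2401 CPM, as did Mir205, at 692.1 and 976.3 CPM. Endothelial Mir126a was higher, at 16564 CPM against 21180 CPM, as were 6 of the 7 mesenchymal and mural markers, with Mir145b at 0, summed at 12983 CPM against 15695 CPM. Leukocyte markers summed to 372.7 and 452.1 CPM, erythroid markers to 326.8 and 250.8 CPM, and Hox cluster markers to 188.5 and 176.0 CPM. Of the neural progenitor and neuron markers 8 of 10 were higher, yet their sum was 28978 and 28523 CPM. With this scaling, 103 of the 167 genes that Fisher's test found to differ were higher in replicate 2. The part of these cells in the differences of the members was not tested.

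**Figure D4:**
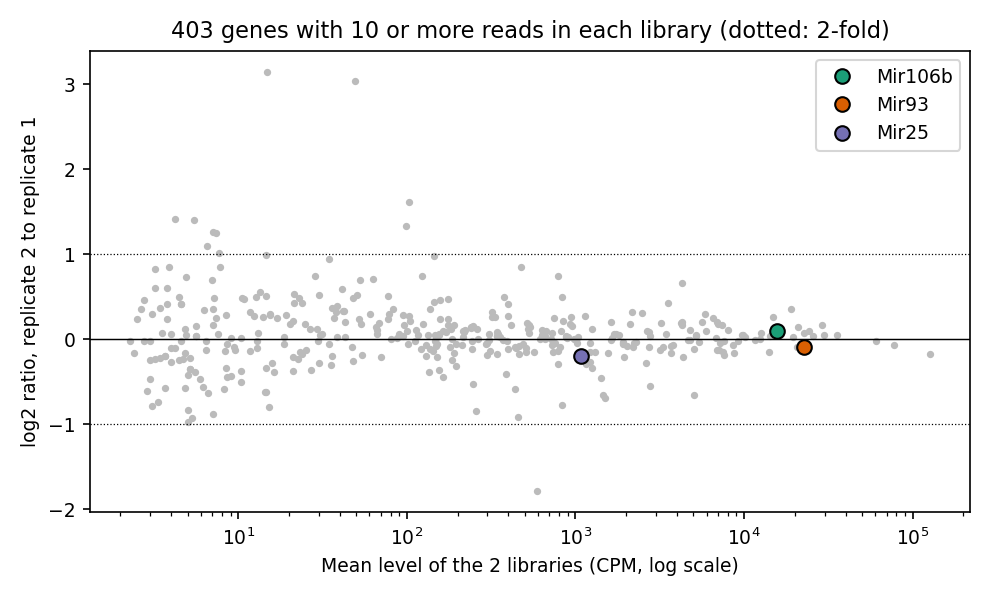
Log2 ratio of replicate 2 to replicate 1 against mean level in CPM (log scale) for the 403 genes that had 10 or more reads in each library; dotted lines mark a 2-fold difference. Mir106b at 0.10, Mir93 at -0.09 and Mir25 at -0.20 lie within the band of genes of similar level.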

How the data were processed

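The deposited files hold raw read counts per gene for both strands, the gene strand and the opposite strand, not normalised by the authors. The columns were told apart by their values: the first equalled the sum of the others in all 1973 genes. Per the notes deposited with the files, counts were derived from alignments to mm10 with annotation M4. The aligner, counter, adapter removal and kit were not given in the sources used here. Rows naming no gene were left out of library sizes: 17.5% and 16.8% of all reads unmapped, 37.9% in both libraries at several places, 5.49% and 5.93% in no feature.

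Symbols and positions came from GENCODE M21 (same build; 1894 genes matched by Ensembl ID without version), sequences from RefSeq tables. All 3 members and 14 mature-strand entries of the seed families matched. CPM used 4333194 and 4397107 gene-strand reads; intervals (95%, exact) and the floor of 3 reads cover counting error only, since no molecular identifiers are given. With 1 group, no edgeR contrast could be fitted; edgeR 4.0.16 in R 4.3.3 gave the common dispersion, and Fisher's exact test compared genes with at least 10 reads over both libraries. These steps were tested on simulated data. RNAfold 2.7.2 folded the hairpins; SciPy 1.17.1 was used. Named genes were the members, both paralogous clusters, both seed families, the 3 nearest genes in level and the listed markers. Members and lists were chosen with earlier results of these data known. Alternatives covered strand, scaling (DESeq2 1.42.0 size factors included), minimum reads, fold, distance, hairpin length and leaving out a replicate. The pools are separate biosamples with 1 library each, so their differences and SDs also hold variation from dissection, library preparation and sequencing. The p-values take counting error as the only error.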

Additional observations from a re-analysis of the deposited data

How the results depend on the processing

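Of 115 alternative values for 21 results, 99 counted as the same, 16 moved and none reversed. Levels, ranks, shares and ratios were the same if within the SD of the replicates. Pool differences of the members were the same if direction and side of the threshold held. Counts of differing genes had to stay within 1.5-fold. Places by evenness and members sharing a stretch had to be equal, and the coefficient of variation equal to 3 significant digits. Part of the 99 was fixed in advance. A level, share or ratio from 1 replicate always lies within the SD of the 2. Some settings could not alter a result, such as the both-strand column for the ratios between members. The count of 99 is therefore no measure of robustness. With all reads as the library size, the levels became 6167 CPM for Mir106b, 8881 CPM for Mir93 and 424.8 CPM for Mir25, and the cluster's share 1.55%. Without the most abundant gene in the library size they became 17988, 25928 and 1241 CPM and 4.52%. The levels and shares under both settings follow from the changed totals. In the both-strand column the share was 3.84% and the rank of Mir25 was 106, since 7 genes with opposite-strand reads passed it. With only hairpins that share no stretch, Mir25 held 4.76% of the reads left in the miR-92 seed family, a share that leaving genes out can only raise. With neighbours at most 3 kb apart the cluster took place 2 of 8 by evenness. The genes called with a 2-fold minimum were 5 of 316 with at least 100 reads and 32 of 511 with a 1.5-fold minimum, against 14 of 511. The coefficient of variation was 14.3% with at least 100 reads in both libraries and 16.4% with TMM scaling. Leaving out a replicate gave 15176 to 16263 CPM for Mir106b, 21945 to 23348 CPM for Mir93 and 1009 to 1158 CPM for Mir25, and 3.92% to 3.97% for the cluster. Dividing by hairpin length, and TMM or DESeq2 scaling of the pool comparison, were added after the data were seen and kept each direction of the members. No paired analysis of conditions was possible because the series has 1 group, whereas the ratios between genes are paired by library. The pool comparison and the dispersion need both libraries, so no replicate could be left out there. Depth does not limit the members, which have at least 4438 reads each. What limits them is that 2 pools give the spread and that reads of the 2 arms are added.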
